A study of Homo sapiens with 10 samples.

Results

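The HOX genes code for homeodomain transcription factors that give cells their position along the body axis. In mammals they stand side by side in 4 clusters, HOXA, HOXB, HOXC and HOXD. A silent cluster is usually packed by Polycomb complexes, and an active one is opened over many neighbouring promoters and enhancers at once. In blood, HOXA and HOXB genes are active in stem and progenitor cells and are shut down as T cells mature, while some T cell leukemias keep HOXA genes active. The members described here are all accessible regions of the study that lie in the hg19 windows of the 4 clusters: chromosome 7, 27130000 to 27250000 for HOXA, chromosome 17, 46600000 to 46810000 for HOXB, chromosome 12, 54330000 to 54450000 for HOXC, and chromosome 2, 176950000 to 177060000 for HOXD. They were chosen by position alone. By symbol, RefSeq (GRCh38.p14) names 39 protein-coding HOX genes in these clusters, 11 of HOXA, 10 of HOXB, 9 of HOXC and 9 of HOXD. The windows held 22 of the 35505 regions that the 10 deposited peak lists make up together.

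Open DNA was mapped by ATAC-seq, where a transposase cuts and tags it, in CCRF-CEM cells, an established human leukemia line of T lymphoblasts. The parental cells carry wild-type SLFN11, whose protein binds stressed replication forks, and the other cells carry a SLFN11 gene knockout. Each was given DMSO, prexasertib, an inhibitor of the checkpoint kinase CHK1, at 100 nM for 2, 4 or 6 h, or camptothecin, which traps topoisomerase I on DNA, at 100 nM for 4 h. That gives 10 libraries with 1 library per group, so no difference below could be set against a spread between replicates and none was tested. The sources used here do not say whether the knockout cells are a single clone. For the parental 4 h prexasertib library the series record states that its raw reads are truncated. Calling a region in a library means that its list has a peak there. For each called region the width is that of the longest peak, and the fold is the highest deposited enrichment at a summit over the local background within that library. The −log10 q is the highest of the deposited values, and the weakest in the lists lay just above 2. Regions are numbered within each cluster in the order of their coordinates. Positions were not matched to single HOX genes, since no hg19 annotation was used, and T cell marker genes were not looked up for the same reason.

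Over the 10 lists together, the HOX clusters held more accessible regions per length than their flanks or chromosomes, and most of these were weak and narrow. The 22 regions were called 84 times over the 10 lists, and the peaks of a library covered between 0.163% and 1.06% of the 560 kb of the 4 windows. Over chromosomes 1 to 22 and X, each up to its last region, the covered share was 0.293% to 0.526%. The share in the windows was the lower one in the parental 2 h prexasertib and the knockout camptothecin libraries, at 0.78 and 0.43 times, and the higher one in the other libraries, up to 2.48 times after 6 h in parental cells. HOXB held 11 regions, HOXC and HOXD held 4 each, and HOXA held 3. Per 100 kb that is 5.24 regions for HOXB, 3.64 for HOXD, 3.33 for HOXC and 2.5 for HOXA, against 2.13, 1.15, 1.27 and 1.14 over chromosomes 17, 2, 12 and 7 up to their last region. Windows of the same length on both sides of each cluster held 20 regions together, 12 of them beside HOXB and 1 beside HOXA. The clusters thus had 3.93 regions per 100 kb and their flanks 1.79. These densities count every region called in any list, and were not worked out for single libraries or a stricter threshold. Of the 84 calls, 67 (79.8%) had a −log10 q under 10, a share that was 44.6% over the 199420 calls of all regions. The median fold was 4.74 in the HOX regions and 5.79 over all calls, and the median width was 370.5 bp against 551 bp. Only 17 of the 84 calls had a fold above the median of their own list, and 13 of these belonged to HOXC-4 or HOXD-2.

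**Figure D1:**
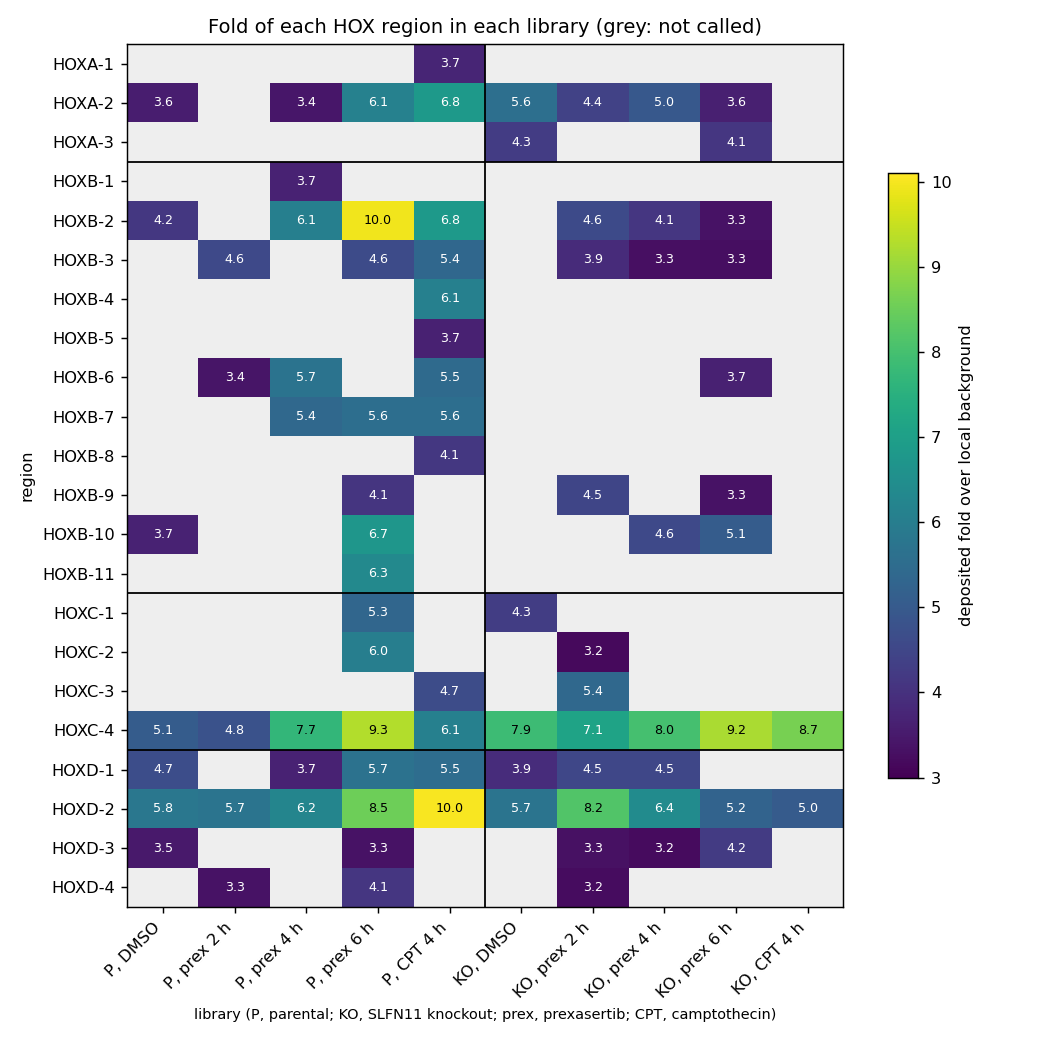
Deposited fold of the 22 HOX regions (rows, by cluster) in the 10 libraries (columns, parental on the left and SLFN11 knockout on the right), with grey where the region was not called. HOXC-4 and HOXD-2 are filled in all 10 columns, and most HOXB rows are filled in a few columns only.

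Few of these regions were constant. Called in all 10 lists were 2 of 22 regions, HOXC-4 and HOXD-2, where 32.7% of all regions were. HOXA-2 followed with 8 lists, and HOXB-2 and HOXD-1 with 7 each. In 1 list only were 6 of 22 regions, against 26.1% of all regions. By genotype, 14 regions were called in both, 7 in parental lists only (14.0% of all regions) and 1 in knockout lists only (19.9% of all regions). No region was called in all 5 libraries of one genotype and in none of the other.

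The strongest HOXC region was HOXC-4, at chromosome 12, 54411491 to 54412183. Its fold in parental cells was 5.06 with DMSO, 4.79, 7.70 and 9.29 after prexasertib for 2, 4 and 6 h, and 6.10 with camptothecin. In knockout cells it was 7.87 with DMSO, 7.12, 8.01 and 9.18 after prexasertib for 2, 4 and 6 h, and 8.65 with camptothecin. The parental DMSO, 2 h and camptothecin libraries lay below every knockout library, and the parental 6 h library lay above them all. The parental width was also low with DMSO and at 2 h: 229 bp with DMSO, 206, 612 and 657 bp after prexasertib, and 440 bp after camptothecin, against 667, 672, 693, 672 and 386 bp in the knockout libraries in that order. The −log10 q was 7.25 with DMSO and 27.1 after 6 h in parental cells, and lay between 21.4 and 32.3 in knockout cells. The strongest summits of the 10 lists lay within 104 bp of each other, so all libraries called the same site. After 6 h of prexasertib the knockout peak had a higher fold than 93.8% of the regions of its list, and with DMSO the parental one exceeded 38.6%.

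HOXD-2, at chromosome 2, 177005256 to 177005839, was the other region of all 10 lists. The parental folds were 5.81 with DMSO, 5.73, 6.22 and 8.53 after prexasertib for 2, 4 and 6 h, and 10.03 with camptothecin, the highest of any HOX region. The knockout folds were 5.74 with DMSO, 8.17, 6.42 and 5.25 after prexasertib, and 5.04 after camptothecin. With DMSO the parental and knockout libraries were thus almost equal, and the highest knockout value came at 2 h where the highest parental ones came at 6 h and with camptothecin. Its width ranged less widely than that of HOXC-4, from 294 to 469 bp in parental and from 359 to 527 bp in knockout cells. Its summits lay within 122 bp.

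HOXA-2, at chromosome 7, 27200168 to 27201187, was the main open site of the HOXA window, and no list called anything in the first 60.6 kb of that window. It was called in 4 parental and 4 knockout libraries, and was missing from the parental 2 h prexasertib and the knockout camptothecin lists. In parental cells its fold was 3.58 with DMSO, 3.43 and 6.13 after prexasertib for 4 and 6 h, and 6.81 with camptothecin. Its parental peak measured 367 bp with DMSO, 260 bp at 4 h, 745 bp at 6 h and 1020 bp with camptothecin, the widest peak in any of the 4 windows. The 745 and 1020 bp peaks each held 2 summits, and every other HOXA-2 peak held 1. In knockout cells the fold was 5.59 with DMSO and 4.41, 4.95 and 3.61 after 2, 4 and 6 h, and the width ran from 311 to 571 bp. The highest knockout fold was thus that with DMSO, and the highest parental ones were those after 6 h of prexasertib and camptothecin. The other HOXA regions were weak: HOXA-1 was called with parental camptothecin at a fold of 3.75, and HOXA-3, the region called in knockout lists only, had 4.25 with DMSO and 4.11 after 6 h.

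**Figure D2:**
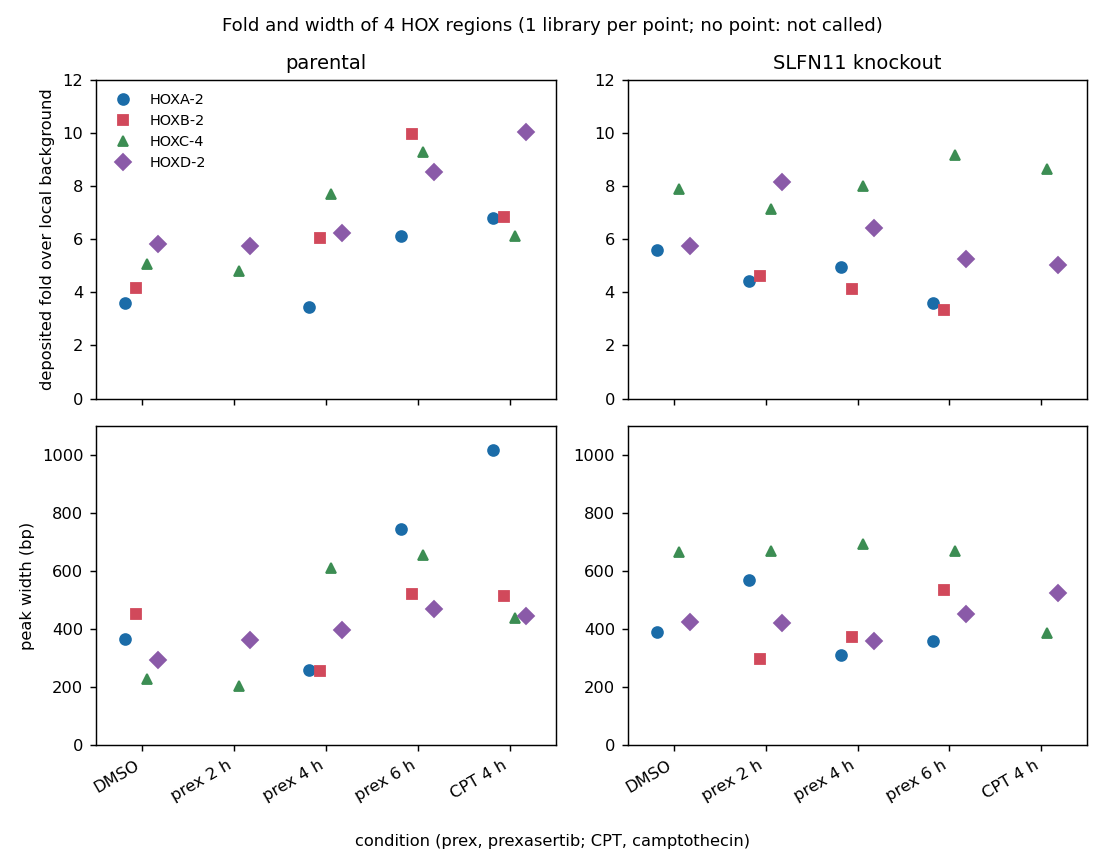
Fold (top, deposited enrichment over local background) and peak width in bp (bottom) of HOXA-2, HOXB-2, HOXC-4 and HOXD-2 in the 5 conditions of parental (left) and SLFN11 knockout cells (right), 1 library per point and no point where the region was not called. Parental points are highest after 6 h of prexasertib or camptothecin, and knockout HOXC-4 stays between 7.12 and 9.18.

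HOXB held the most regions, and each was called in 7 lists or fewer. HOXB-2 to HOXB-10 were 9 regions within 58.8 kb, and no list called more than 7 of them. No HOXB region was called with DMSO or camptothecin in knockout cells, and parental DMSO cells had 2. HOXB-2, at chromosome 17, 46655490 to 46656073, reached the highest fold of the cluster. Its parental folds were 4.16 with DMSO, 6.06 and 9.96 after prexasertib for 4 and 6 h and 6.83 with camptothecin, and its −log10 q was 3.94, 9.20, 26.3 and 11.9 in the same libraries. In knockout cells it had 4.605, 4.12 and 3.34 after 2, 4 and 6 h. The knockout values lay below the treated parental ones, and it was called neither in the parental 2 h library nor in the knockout DMSO and camptothecin libraries. HOXB-7, at chromosome 17, 46696028 to 46696673, was called in the parental 4 h, 6 h and camptothecin libraries, with folds of 5.41, 5.55 and 5.57, and in no knockout library. Its 3 summits lay within 26 bp.

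The remaining HOXB regions had folds of 6.74 or less. HOXB-3 was called in 3 parental libraries, at folds between 4.57 and 5.37, and in 3 knockout libraries, between 3.27 and 3.88. The widest by its median was HOXB-6, with 236, 664 and 505 bp in the parental 2 h, 4 h and camptothecin libraries and 620 bp in the knockout 6 h library. HOXB-10 had a fold of 3.67 with parental DMSO and 6.74 after 6 h of prexasertib, and 4.56 and 5.07 in the knockout 4 and 6 h libraries. Its median over these 4 lists, 4.81, was above that of HOXB-2 over 7 lists, 4.605. HOXB-9 had 4.10 in the parental 6 h library, and 4.49 and 3.34 in the knockout 2 and 6 h libraries. HOXB-11, at chromosome 17, 46755704 to 46756031, was called in the parental 6 h library alone, at a fold of 6.34. HOXB-4, HOXB-5 and HOXB-8 were called with parental camptothecin alone, at 6.08, 3.65 and 4.15. HOXB-1 was called in the parental 4 h library alone, at 3.69. With HOXA-1, 5 of the 22 regions were called after 6 h of prexasertib or camptothecin in parental cells and in no other list, where 10.3% of all regions were.

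In HOXC the other regions were each called in 1 parental and 1 knockout library. HOXC-1 had a fold of 5.34 in the parental 6 h and 4.30 in the knockout DMSO library, with summits 18 bp apart. It was called with DMSO and with none of the 4 treatments in knockout cells. HOXC-2 had 6.03 in the parental 6 h and 3.17 in the knockout 2 h library, and HOXC-3 had 4.65 with parental camptothecin and 5.41 in the knockout 2 h library. In HOXD, HOXD-1, at chromosome 2, 176962102 to 176963021, was called in 7 libraries at folds between 3.68 and 5.68. HOXD-3 was called in 5 libraries, between 3.21 and 4.25, and HOXD-4 in 3, between 3.24 and 4.12. A stretch of 42.2 kb between HOXD-1 and HOXD-2 held no call in any list.

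The libraries differed in how many of the 22 regions they held. In parental cells 7 were called with DMSO, 5, 8 and 14 after prexasertib for 2, 4 and 6 h, and 13 after camptothecin. These counts stood beside 44.2%, 43.5%, 49.5%, 64.3% and 60.4% of all regions called in the same lists. In knockout cells 6 were called with DMSO, 11, 8 and 10 after prexasertib, and 2 after camptothecin, beside 56.2%, 67.0%, 59.6%, 64.7% and 52.4% of all regions. The parental 6 h and camptothecin counts were near the level of all regions, and the count in each of the other libraries was below it, most so with knockout camptothecin. The genome-wide background pileup, a measure of depth recovered from the deposited fold and p-value, was 1.63 with DMSO and between 1.33 and 1.52 in the treated parental libraries. In knockout cells it was 1.59 with DMSO and no lower than 1.74 with any treatment. Each treated parental library was shallower than its DMSO library by this measure and each treated knockout library deeper. With equal list lengths, keeping the 15684 strongest peaks of each list, the knockout libraries held 3, 2, 4, 2 and 2 HOX regions and the parental ones 7, 5, 5, 10 and 9. Of all regions, these lists then called 43.8% to 44.1% in knockout and 43.4% to 43.6% in parental cells, so each of the knockout counts lay far below the level of all regions. The parental counts with DMSO and at 2 and 4 h lay below it too. Those at 6 h and with camptothecin were near it.

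**Figure D3:**
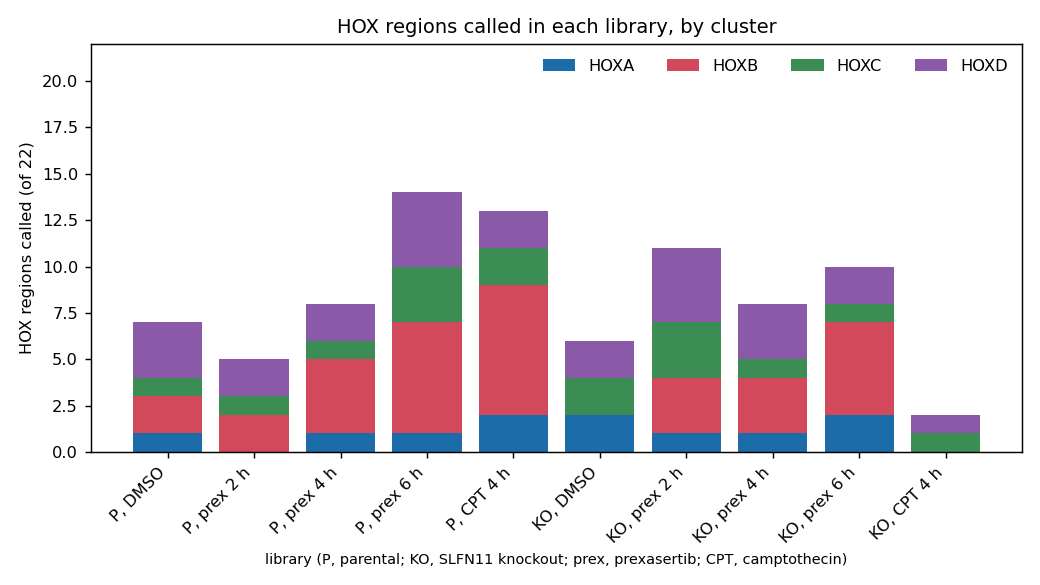
Number of the 22 HOX regions called in each library, stacked by cluster. HOXB regions are absent with knockout DMSO and camptothecin, and the parental 6 h and camptothecin libraries hold the most regions, 14 and 13.

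**Figure D4:**
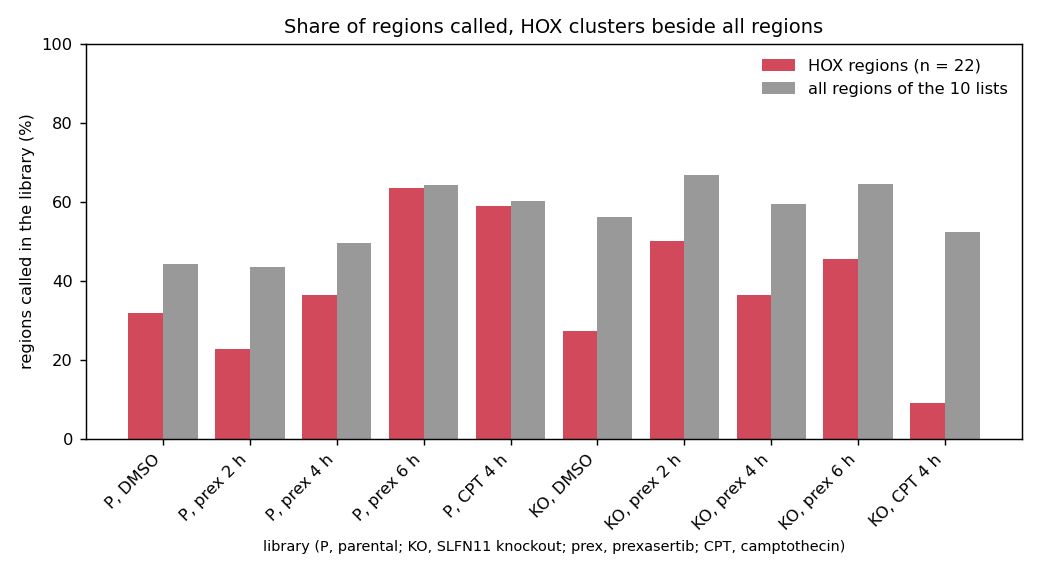
Share of regions called in each library (percent) for the 22 HOX regions and for all regions of the 10 lists. The bars are of like height in the parental 6 h prexasertib and camptothecin libraries, and the HOX bar is far lower with knockout camptothecin, where 2 of 22 were called.

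In parental cells prexasertib was compared with DMSO at each time, to see whether regions appeared or grew with longer inhibition of CHK1. After 6 h, 7 of the 14 HOX regions called in either list were gained and 0 lost, where 35.3% and 5.88% of all regions were. The gained ones were HOXB-3, HOXB-7, HOXB-9, HOXB-11, HOXC-1, HOXC-2 and HOXD-4. With equal list lengths 4 of 11 regions were gained and 1 lost, where 16.4% and 16.5% of all regions were. The median log2 change in fold over the 7 regions called in both lists was 0.78 (range -0.07 to 1.26), against 0.46 over all regions. The fold was at least 1.5 times that with DMSO in 4 of the 7, HOXA-2, HOXB-2, HOXB-10 and HOXC-4, where 36.9% of all regions were. HOXB-2 had the largest change, 2.39-fold, and HOXD-3 the smallest, 0.95-fold. The median log2 width change was 0.37 (range -0.81 to 1.52), against 0.23 over all regions, and ran from the narrower HOXD-3, 600 to 342 bp, to HOXC-4.

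At the earlier times fewer regions were gained. After 4 h, 3 of 10 regions were gained, HOXB-1, HOXB-6 and HOXB-7 (20.2% of all regions), and 2 were lost, HOXB-10 and HOXD-3 (10.7%). The log2 fold changes of the 5 shared regions ran from -0.35 at HOXD-1 to 0.61 at HOXC-4, with a median of 0.10, against 0.22 over all regions. This median depended on the setting: it was 0.54 over the 3 regions shared with equal list lengths and 0.35 over HOXC-4 and HOXD-2, both against 0.24 over all regions, and by summit height it was 0.47 against 0.59. HOXC-4 was the only 1 of the 5 with a fold at least 1.5 times that with DMSO, where 13.2% of all regions were. After 2 h, 3 of 10 were gained, HOXB-3, HOXB-6 and HOXD-4 (13.9%), and 5 lost, HOXA-2, HOXB-2, HOXB-10, HOXD-1 and HOXD-3 (15.3%). At 2 h HOXC-4 and HOXD-2 alone were called in both lists, with log2 fold changes of -0.08 and -0.02.

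Camptothecin was compared with DMSO in the same way. In parental cells 8 of 15 regions were gained (31.1% of all regions) and 2 lost (5.95%), namely HOXB-10 and HOXD-3. The gained regions were HOXA-1, HOXC-3 and 6 of HOXB, that is HOXB-3 to HOXB-8, and with equal list lengths 4 of 11 regions were gained and 2 lost (15.0% of all regions each). All 5 shared regions had a higher fold, by log2 0.24 at HOXD-1 to 0.93 at HOXA-2, with a median of 0.72 against 0.33 over all regions. In 3 of the 5 it was at least 1.5 times that with DMSO, namely HOXA-2, HOXB-2 and HOXD-2, where 21.8% of all regions were. HOXA-2 measured 367 bp with DMSO and 1020 bp with camptothecin, and the median log2 width change was 0.60 against 0.22 over all regions. In knockout cells 0 of 6 regions were gained (11.0%) and 4 lost (17.1%), namely HOXA-2, HOXA-3, HOXC-1 and HOXD-1, and with equal list lengths 0 of 3 were gained and 1 lost (12.4% and 12.6%). At the remaining HOXC-4 and HOXD-2 the log2 fold changes were 0.14 and -0.19.

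**Figure D5:**
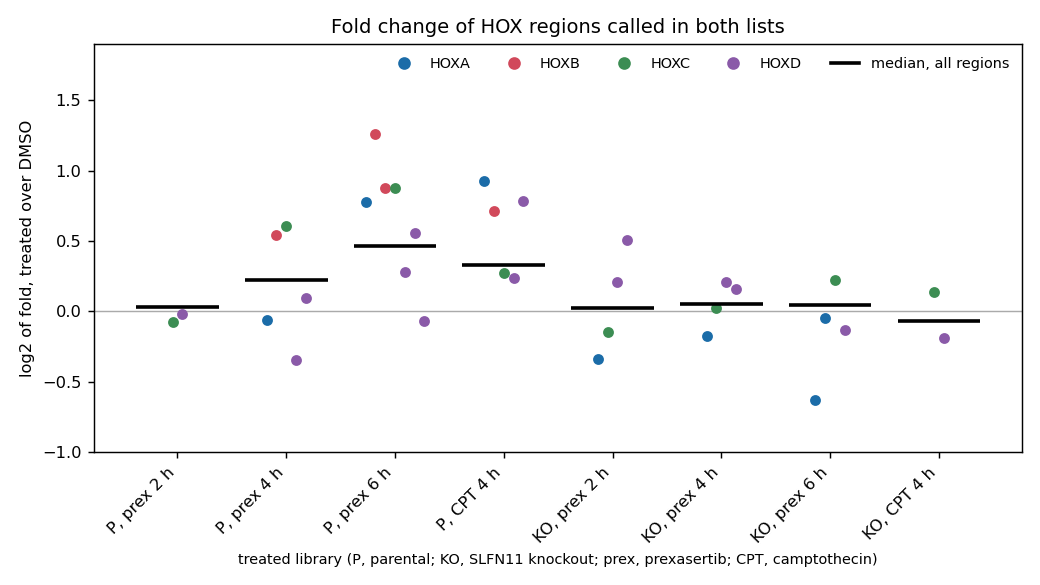
Log2 of the fold in each treated library over the DMSO library of its genotype, 1 point per HOX region called in both lists and coloured by cluster, with a black line at the median over all regions called in both. Points reach 1.26 in the parental 6 h library and lie between -0.63 and 0.51 in the knockout libraries.

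Prexasertib in knockout cells gave new calls with folds below the median of their own lists, and no common shift in fold. The highest of these folds were 5.41 at HOXC-3 at 2 h and 5.07 at HOXB-10 at 6 h, where the list medians were 5.51 and 5.52. After 2 h 7 of 13 regions were gained (22.2% of all regions) and 2 lost (7.31%), after 4 h 4 of 10 were gained (16.4%) and 2 lost (11.3%), and after 6 h 6 of 12 were gained (20.8%) and 2 lost (8.91%). HOXB-2, HOXB-3 and HOXD-3 were gained at each of the 3 times. With equal list lengths 0 of 3, 1 of 4 and 0 of 3 regions were gained at 2, 4 and 6 h, where 11.8%, 11.9% and 12.1% of all regions were. These libraries were deeper than the knockout DMSO library, and the part of depth in the gains was not tested. The median log2 fold changes were 0.03, 0.09 and -0.09, against 0.02, 0.05 and 0.04 over all regions, and the last had no stable sign, at 0.05 with equal list lengths. They were -0.14, 0.02 and 0.22 at HOXC-4 at 2, 4 and 6 h, 0.51, 0.16 and -0.13 at HOXD-2, and -0.34, -0.18 and -0.63 at HOXA-2.

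Parental and knockout libraries of the same condition were compared next. With DMSO 3 of 9 HOX regions were called in parental cells only, HOXB-2, HOXB-10 and HOXD-3 (6.84% of all regions), and 2 in knockout cells only, HOXA-3 and HOXC-1 (26.7%). The parental fold was 0.64 times the knockout one at HOXA-2 and at HOXC-4, 1.20 times at HOXD-1 and 1.01 times at HOXD-2, and the parental HOXC-4 peak was 0.34 times as wide. After 2 h of prexasertib 1 of 12 was parental only (3.5%) and 7 knockout only (37.3%), and after 4 h 3 of 11 were parental only (7.78%) and 3 knockout only (23.4%). After 6 h 6 of 16 were parental only (16.9%) and 2 knockout only (17.3%). The parental fold was higher in 7 of the 8 shared regions at 6 h, with a median log2 ratio of 0.45 (range -0.35 to 1.58) against 0.27 over all regions, and 2.98 times the knockout one at HOXB-2. By summit height the median was 0.91 against 0.47, and among calls whose −log10 q reached 10 HOXC-4 alone was shared, at 0.017 against 0.31. HOXC-4 was nearly equal in both genotypes at 6 h, at 1.01 times. After camptothecin 11 of 13 regions were parental only (22.5%) and 0 knockout only (10.7%). HOXD-2 then had 1.99 times the knockout fold, while HOXC-4 had 0.70 times. Every comparison with DMSO within a genotype shares that DMSO library, so these values are not independent of each other.

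The drugs were compared with each other after 4 h. In parental cells 1 of 14 regions was called with prexasertib only, HOXB-1 (7.23% of all regions), and 6 with camptothecin only (23.9%). The fold of HOXA-2 with prexasertib was 0.50 times that with camptothecin. HOXC-4 went the other way, at 1.26 times, and the median log2 ratio over the 7 shared regions was -0.17 (range -0.99 to 0.34), against -0.12 over all regions. In knockout cells 6 of 8 regions were called with prexasertib only (20.3%) and 0 with camptothecin only (9.3%). HOXC-4 had 0.93 and HOXD-2 1.27 times the camptothecin fold there.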

How the data were processed

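The authors deposited 1 list of ATAC-seq peaks per library, with hg19 positions. The submitters' processing notes name MACS2 2.1.2, BWA 0.7.17, Picard 2.9.2, SAMtools 1.8, Trimmomatic 0.39 and Trim Galore 0.6.2, with no parameters in the sources used here. The deposited fold is a ratio of the summit to the local background with 1 added to both, so it also varies with the depth of a library. Each summit has a deposited −log10 q-value and −log10 p-value.

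Peaks on chromosomes 1 to 22 and X were merged where they overlapped by at least 1 bp, with Python 3.11.15, pandas 2.3.3 and scipy 1.17.1. A region was a HOX region when it touched a window. Gained means called in the treated and not in the DMSO list, lost the opposite, and shares are over regions called in either. Log2 ratios are over regions called in both, with their range and no interval, since regions of 1 library are not replicates. A whole summit pileup was solved from fold and p within 0.001 of the deposited −log10 p, which worked for at least 99.0% of summits of each list, and the smallest background stood for the relative depth. Depth in reads is unknown. The pileup step was tested on simulated summits with a −log10 p above 4. The calling of gains, losses and changes in width and fold was tested on the knockout DMSO list with peaks removed or altered. That test does not cover differences between separate libraries. Alternatives were a −log10 q of at least 10, equal list lengths, wider windows, a reciprocal overlap of 50%, summit height, covered bases and leaving out the parental 4 h list.

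The members and lists were chosen with earlier results of these data known. Described individually are all 22 regions, with more values for those that are widest or of highest fold in a cluster, lost with all treatments of a genotype, or of extreme fold change after 6 h of prexasertib or camptothecin. Genes that act with HOX genes, cell type markers and motifs were not looked up, since no hg19 annotation or genome was used, and no sequence is shown for that reason.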

Additional observations from a re-analysis of the deposited data

Results flagged for a closer look

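Several values moved in opposite directions in the parental and knockout cells under the same treatment. With 1 library per group these differences were not tested. With camptothecin the number of HOX regions called was 6 higher than with DMSO in parental cells, and in knockout cells the difference was -4. The share of all regions called moved the same way, from 44.2% to 60.4% in parental and from 56.2% to 52.4% in knockout cells. The median log2 fold changes were 0.72 and -0.026, and the median log2 width changes 0.60 and -0.24. Over all regions they were also of opposite sign, at 0.33 and -0.068 for fold and 0.22 and -0.033 for width. The HOX medians in knockout cells rest on HOXC-4 and HOXD-2 alone. The stricter threshold, a −log10 q of 10 or more, left HOXC-4, where the knockout fold median was 0.14. No HOX region was shared with DMSO in parental cells at that threshold, so the directions could not be compared there. After 6 h of prexasertib the median log2 fold change was 0.78 in parental and -0.089 in knockout cells. Over all regions it was 0.46 and 0.043. The opposite direction was lost with equal list lengths and over HOXC-4 and HOXD-2 alone, where the knockout median was 0.047. With the stricter threshold the knockout median was 0.22, with no parental median to set beside it. After 4 h the median log2 width change was 0.0089 in the parental line and -0.098 in the knockout. Over all regions it was 0.094 and 0.086. The knockout HOX median was 0.055 with the stricter threshold. After 2 h the number of HOX regions differed by -2 in parental and 5 in knockout cells. Of all regions, 43.5% and 67.0% were called at 2 h, against 44.2% and 56.2% with DMSO. With equal list lengths both HOX counts were lower than with DMSO, 5 against 7 regions in the parental and 2 against 3 in the knockout libraries. The median log2 fold changes at 2 h were -0.049 and 0.032 and the median log2 width changes 0.078 and -0.0031, so both lay near 0. With the stricter threshold the knockout ones were -0.14 and 0.011. Over all regions the 2 h medians were 0.030 and 0.021 for fold and 0.0032 and 0.18 for width.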

How the results depend on the processing

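Widening each window by 20 kb moved no count of called regions, by cluster or library, by over 1.5 times. Leaving out the parental 4 h prexasertib list could not change the count of another library, so it tested nothing there. By cluster it could remove HOXB-1 only, called in that list alone, which left 10 of the 11 regions of HOXB. Covered bases equalled the width at every HOX call, each of which is 1 peak, so that alternative tested nothing. The medians rest on 2 to 8 regions, and some changed sign. With a −log10 q of at least 10, where each median left is that of HOXC-4, the knockout log2 fold medians were -0.14 at 2 h, 0.22 at 6 h and 0.14 with camptothecin. The knockout width medians were then 0.011 at 2 h and 0.055 at 4 h, and the parental over knockout ratio with camptothecin was -0.50. The knockout 6 h median was 0.047 with equal lists and over HOXC-4 and HOXD-2, the regions of all 10 lists. Summit height turned no sign of the 13 medians of fold. The counts of regions also depended on the processing. With a −log10 q of at least 10, 1 region remained in HOXA, 2 in HOXB, 1 in HOXC and 1 in HOXD. The parental libraries then held 0 with DMSO, 0, 1 and 5 after prexasertib for 2, 4 and 6 h, and 4 with camptothecin, and the knockout libraries 1, 2, 2, 1 and 1 in the same order. Of the calls of all regions, 49.9%, 48.8%, 41.7%, 42.1% and 42.8% fell under this threshold in the parental lists, in the same order. In the knockout lists 45.9%, 42.7%, 43.0%, 44.9% and 46.8% did. With this threshold, HOX gains in parental cells were 0 at 2 h, 1 at 4 h, 5 at 6 h and 4 with camptothecin, with 0 lost in each. The gain at 4 h was HOXC-4. Those at 6 h were HOXA-2, HOXB-2, HOXB-10, HOXC-4 and HOXD-2, and those with camptothecin were the same without HOXB-10. All of these were called with DMSO in the full lists, at a −log10 q under 10. None of them was a gain of the full lists, and no gain of the full parental lists reached the threshold. Gains in knockout cells were 1, 1 and 0 at 2, 4 and 6 h, with 0 lost at any of these times and 0 with camptothecin. The gain at 2 h and at 4 h was HOXD-2, which the full knockout DMSO list called at a −log10 q of 7.97. With equal list lengths 1 region remained in HOXA and 7 in HOXB, and the parental 4 h library held 5. The knockout libraries held 3 with DMSO, then 2, 4 and 2 at 2, 4 and 6 h. In parental cells 4 regions were then lost at 4 h, 4 gained and 1 lost at 6 h, and 4 gained with camptothecin. In knockout cells 0, 1 and 0 were gained and 1, 0 and 1 lost at 2, 4 and 6 h of prexasertib, and 1 was lost with camptothecin. Requiring a reciprocal overlap of 50% gave 5 gained and 4 lost at 4 h in parental cells, against 3 and 2 without it. At 6 h it gave 10 gained and 3 lost, against 7 and 0. The regions lost at 6 h were thus called in both lists, with peaks that overlapped too little. HOXC-4, with 229 bp with DMSO and 657 bp at 6 h, is 1 of them, and its fold was higher at 6 h. Shares of all regions gained or lost were not worked out with this overlap or with the stricter threshold. The equal lists and the stricter threshold drop weak peaks by construction. With a −log10 q of at least 10 no shared region was left for any parental treatment against DMSO, nor between the genotypes with DMSO or at 2 h, so no median was given there. No paired analysis was possible because the groups share 1 replicate number only, and a test with the 5 conditions as pairs of genotypes was not run, since the conditions are different treatments. Of the 84 HOX calls, 32 (38.1%) had a −log10 q under 5, against 21.8% of all calls, so a region missing from a list may lie just under its threshold. The lists give no values for regions that were not called.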
